A study of Mus musculus with 24 samples.

Results

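The genes described here are the nuclear-encoded subunits of the mitochondrial respiratory chain and of ATP synthase, with the assembly factors that share the Nduf gene prefix. They were chosen by symbol alone: all probe sets with a single gene symbol that begins with Nduf followed by a, b, c, s or v, with Uqcr, with Cox4 to Cox8 or with Atp5, and the genes Sdha to Sdhd. The rule took 114 probe sets of 89 genes, out of 19938 genes measured. By complex these were 34 subunits and 7 assembly factors of complex I, 4 subunits of complex II, 8 of complex III, 18 of complex IV and its isoforms, 17 of ATP synthase, and Ndufa4l2, a paralog of Ndufa4 that was kept apart. Another 6 probe sets carry several symbols, those of Cox7c, Ndufb4 and 1 of Ndufs5, and were left out.

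Expression was measured in mouse CD4 T cells of the 129SvEv strain on 24 Affymetrix arrays, in 8 groups of 3. The cells were wild-type (WT) or carried the Batf1/3DKO genotype (DKO), a double knockout of Batf and Batf3, a pair of transcription factors that act with Irf4 downstream of the T cell receptor. In each genotype the groups were naive cells without stimulation at day 0, cells at day 2, and cells at day 4 after activation with 2.2 or with 10 ng/ml of soluble anti-CD3e, an antibody that triggers the receptor. All activated groups also received anti-CD28, with both antibodies held by plate-bound anti-hamster IgG, and were cultured as TH2 cells, the helper subset that makes interleukin-4. The anti-CD3e concentration of the day 2 groups is not given in the labels. Nothing in the labels tells whether the 3 arrays of a group came from different animals or cultures, so the p-values describe the scatter among these arrays, part or all of which could be technical. By its title the study concerned graded responses to receptor signal strength, and the comparisons below are activation within each genotype, dose within each genotype, and genotype within each state.

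The respiratory chain passes electrons from NADH (complex I) and succinate (complex II) through coenzyme Q to complex III, from there through cytochrome c to complex IV, and on to oxygen. Complexes I, III and IV pump protons across the inner mitochondrial membrane, and ATP synthase (complex V) makes ATP as protons flow back. Nearly all subunits are encoded in the nucleus, a core set is encoded in mitochondrial DNA, and assembly factors bring them together without staying in the finished complex. Resting T cells rely mainly on mitochondrial respiration, and activated T cells are known to raise glycolysis while they enlarge their mitochondria.

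Levels are array intensities on a linear scale, and changes are log2 differences between group means from limma, with their standard error (SE), 95% interval and Benjamini-Hochberg adjusted p over all 19938 genes. A gene was called where the adjusted p was under 0.05. The median mean intensity of all genes, 32.2, served as a guide to background: Cox7b2, Cox8b, Cox8c and Ndufa4l2 did not exceed it, and levels of different genes are not compared, since each probe set has its own brightness. Array medians ran from 26.42 to 31.63. Batf averaged 134.9 to 1595 in the WT groups and 31.2 to 46.5 in the DKO groups, as the labels require. All 6 measured T cell markers were above the guide, with a summed intensity of 3947 to 8613 over the arrays. None of the 3 B cell, 6 myeloid and 4 natural killer cell markers was above it in naive cells. In activated cells at most 1 gene of each list was, with the highest levels for Cd79b in DKO cells at 10 ng/ml (88.9 ± 27.9, SD, n = 3), for Fcgr3 in WT cells at 10 ng/ml (83.6 ± 23.8), and for Eomes at 2.2 ng/ml in WT (200.2 ± 28) and DKO cells (599 ± 82.5). The CD8 T cell list had 1 of 2 genes above the guide in every group. Their part in the results was not tested.

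Respiratory chain and ATP synthase genes rose on activation in both genotypes, at both times and at both doses. In WT cells at day 2, 78 of the 89 genes rose and 3 fell, where 19.7% of all genes rose and 20.5% fell. The median log2 difference of the 89 genes was 1.16, against -0.11 for all genes. Among the 9969 genes brighter than the guide, a set that holds most of the members, 37.1% rose and 23.5% fell, with a median of 0.11. At 2.2 ng/ml 74 rose and 2 fell (16.1% and 13.1% of all genes), and at 10 ng/ml 74 rose and 3 fell (18.4% and 18% of all genes). In DKO cells 77 rose and 1 fell at day 2 (15.3% and 13.3%), 74 rose and none fell at 2.2 ng/ml (11.6% and 8.28%), and 78 rose and none fell at 10 ng/ml (16.4% and 14.3%). The 3 comparisons of a genotype share its day 0 arrays, so they are not independent.

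The size of these rises depended on the scaling of the arrays. Renormalizing the deposited values with cyclic loess moved the median of all genes by 0.11 at day 2 and by 0.10 at 10 ng/ml in WT cells, and lowered the median of the 89 genes at day 2 from 1.16 to 0.72. In the other activation comparisons the members' median lay between 0.90 and 1.15 as deposited and between 0.63 and 0.84 after loess. The counts moved less: 64 genes still rose in WT cells at day 2 and 65 to 78 in the other 5 comparisons. In bulk samples, more RNA of these genes per cell and more cells with a high level cannot be told apart.

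The share of all genes called higher in all 6 activation comparisons was not computed. It cannot exceed the smallest share in any single comparison, that of DKO cells at the low dose. There 11.6% of all genes rose, and 21.9% of the genes brighter than the guide. Of the 89 genes, 71 were called higher in all 6 activation comparisons on the deposited scale. After loess this count was not computed, and it cannot exceed the number given above for WT cells at day 2. Sdhc and Cox6a1 are among the 71, and their values after loess are given below. They were all 17 ATP synthase genes, all 8 complex III genes, 32 of 34 complex I subunits, 3 of 4 complex II genes, 10 of 18 complex IV genes and 1 of 7 complex I assembly factors, Ndufaf1. The 18 genes outside the 71 were 8 complex IV genes, most of them tissue-restricted isoforms, 6 assembly factors, Ndufs1, Ndufa5, Sdha and Ndufa4l2.

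**Figure D1:**
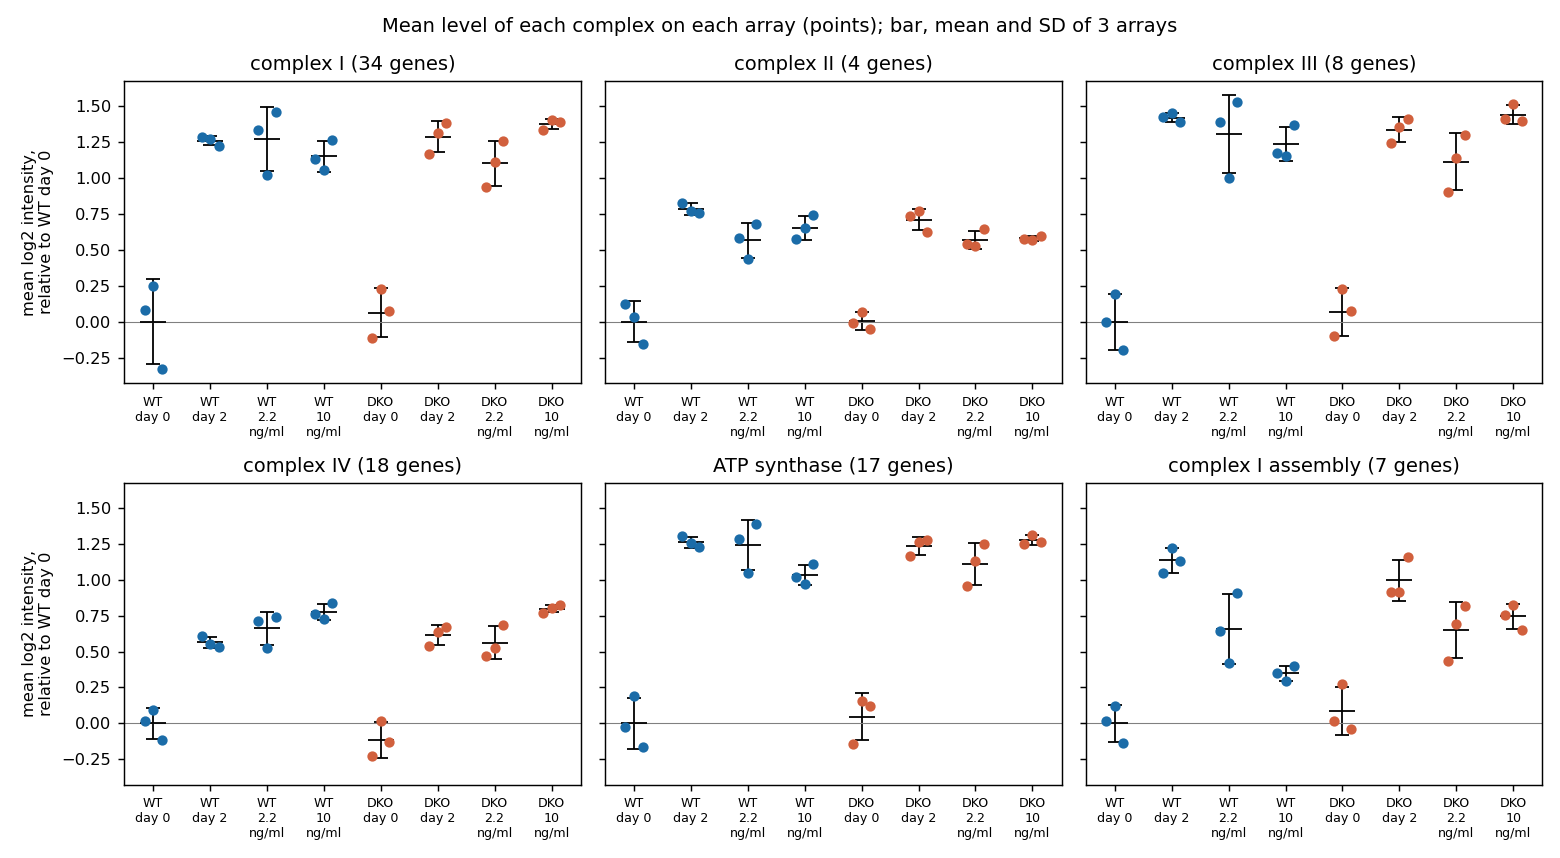
Mean log2 intensity of the genes of each complex on each array, relative to the WT day 0 mean, by group; points are arrays and bars the mean and SD of 3 arrays, with WT in blue and DKO in orange. For complex I, all 6 naive arrays lie between -0.33 and 0.25 and all 18 activated arrays between 0.94 and 1.46, and the assembly factors fall from 1.13 at day 2 to 0.35 at 10 ng/ml in WT cells.

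As a group the complex I subunits averaged 1.26 ± 0.03 (log2 difference from WT day 0, SD, n = 3) in WT cells at day 2, 1.27 ± 0.22 with 2.2 ng/ml and 1.15 ± 0.11 with 10 ng/ml. DKO cells stood at 0.06 ± 0.17, 1.29 ± 0.11, 1.10 ± 0.16 and 1.38 ± 0.04 in the order day 0, day 2, 2.2 and 10 ng/ml. The widest spread was at day 0 and 2.2 ng/ml in WT cells, where WT day 0 replicate 3 (-0.33) and WT replicate 2 at 2.2 ng/ml (1.02) were the lowest of their groups.

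Within complex I the leading rises in WT cells at day 2 were those of accessory subunits. Ndufab1, the acyl carrier protein that is also used in mitochondrial fatty acid synthesis, read 145, 151 and 143 on the naive WT arrays and 806, 807 and 871 at day 2. The 3 arrays of each group lay close together and far from those of the other group, and the difference was 5.66-fold (95% interval 4.45 to 7.20, limma adjusted p = 1.23e-11). In DKO cells Ndufab1 read 174, 207 and 267 at day 0 and 676, 695 and 842 at day 2. Ndufs5, a small accessory subunit on the intermembrane space side, stood at 122, 152 and 70.9 in naive WT cells and at 469, 493 and 571 at day 2, a rise of 2.21 ± 0.24 (log2 difference ± SE, as below). It led the DKO rises at each time, with 2.12 ± 0.24 at day 2, then 1.86 ± 0.24 for the low and 2.38 ± 0.24 for the high dose. Ndufb8, an accessory subunit of the membrane arm, rose from 113, 191 and 105 to 545, 540 and 551 at day 2 in WT cells (2.05 ± 0.19).

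Ndufs1 and Ndufa5 were the complex I subunits that did not rise in every comparison. Ndufs1, singled out after its values were seen, is the large iron-sulfur protein that carries electrons towards coenzyme Q. Naive WT cells held it at 130, 166 and 127, day 2 cells at 226, 234 and 257, and cells at 10 ng/ml at 138, 149 and 153. It rose at day 2 in WT cells (0.77 ± 0.15, adjusted p = 0.000134), whereas at 10 ng/ml its level overlapped that of naive cells (0.07 ± 0.15, adjusted p = 0.759). The fall from day 2 to 10 ng/ml was -0.71 ± 0.15 (adjusted p = 0.000702). In DKO cells it rose at day 2 by 0.51 (adjusted p = 0.0089), a call that was lost without DKO day 2 replicate 3 (adjusted p = 0.0998), and it passed no test at either dose (adjusted p = 0.586 and 0.213).

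Complex II is also an enzyme of the citric acid cycle. Its 4 genes had a median log2 difference of 0.74 in WT cells at day 2, against 1.30 for complex I and 1.28 for complex III. Sdhb, the iron-sulfur subunit, read 318, 315 and 161 in naive WT cells and 636, 616 and 563 at day 2 (1.26 ± 0.18, 2.39-fold), and Sdhd, a membrane anchor, 124, 103 and 98.3 against 210, 218 and 222 (1.01 ± 0.13). Day 2 arrays were above all naive arrays for both. Sdha, the flavoprotein that oxidizes succinate, read 343, 349 and 326 against 433, 464 and 441, a rise of 0.39 ± 0.10 (adjusted p = 0.00281). Its difference was -0.10 after cyclic loess, so no direction held, and in DKO cells it was 0.17 at day 2 (adjusted p = 0.248). Sdhc, the other anchor, rose by 0.48 ± 0.14 at day 2 in WT cells (adjusted p = 0.00845), a call lost without WT day 2 replicate 1 (adjusted p = 0.0571), and stood at -0.04 after loess.

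In complex III the small subunits Uqcr11 and Uqcr10 led in WT cells at day 2. Uqcr11 read 122, 109 and 90.4 in naive WT cells, 533, 525 and 525 at day 2, 649, 339 and 571 at 2.2 ng/ml, and 433, 485 and 624 at 10 ng/ml. Every activated array was above every naive array, and the rises were 2.31 ± 0.22, 2.24 ± 0.22 and 2.26 ± 0.22. In DKO cells they were 2.11 ± 0.22, 1.77 ± 0.22 and 2.29 ± 0.22. Uqcr10, another small subunit, rose 3.97-fold (95% interval 3.05 to 5.18) at day 2 in WT cells and 3.6-fold (2.77 to 4.69) in DKO cells. The lowest rises of the complex at day 2 were 0.65 in WT cells, for Uqcrh, and 0.71 in DKO cells. All 8 genes passed the test in each activation comparison.

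ATP synthase rose as a whole, with a range at day 2 from 0.70 to 1.89 in WT and from 0.69 to 1.98 in DKO cells. Its membrane ring is built of c subunits, and Atp5g1, Atp5g2 and Atp5g3 encode the same mature c subunit with different import sequences. Atp5g1 read 268, 259 and 215 in naive WT cells, 955, 939 and 855 at day 2, and 534, 579 and 572 at 10 ng/ml. It rose 3.72-fold (95% interval 2.82 to 4.89) at day 2 and fell by 0.71 ± 0.19 from day 2 to 10 ng/ml (adjusted p = 0.00774). Atp5g2 read 377, 628 and 454 in naive cells, 1023, 1096 and 1043 at day 2, and 1377, 1475 and 1367 at 10 ng/ml. Its arrays at 10 ng/ml were all above those of day 2, where those of Atp5g1 were all below, though the difference for Atp5g2 did not pass the test (0.42 ± 0.16, adjusted p = 0.0617). Atp5g3 read 712, 810 and 633 in naive cells, 2183, 2111 and 2304 at day 2, and 1303, 1342 and 1640 at 10 ng/ml, a rise of 1.62 ± 0.13 and then a fall of 0.63 ± 0.13 (adjusted p = 0.000531). In DKO cells the change of Atp5g3 from day 2 to 10 ng/ml was -0.08 ± 0.13 (adjusted p = 0.841), with 2221, 2162 and 2150 followed by 2119, 2061 and 2004. Atp5g2 rose in DKO cells over the same interval, from 1057, 842 and 887 to 1427, 1397 and 1361. In limma over all probe sets its difference was 0.59 (adjusted p = 0.0297), and that of Atp5g1 was -0.13 (adjusted p = 0.818).

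Promoter sequences of these 3 genes, with those of Uqcr11, of the complex IV isoform pair Cox7a1 and Cox7a2 and of the assembly factor Ndufaf4, are shown because they carry the contrasts of the results: a leading riser, a trio that encodes 1 protein and parted at day 4, an isoform pair of which Cox7a1 was called with dose, and an assembly factor that fell. Each is the 250 bases before the RefSeq start site on the gene's own strand (mouse build GRCm38.p6, 5′ to 3′), with any match to the 6 motifs named below in capitals. The matches found were of CCGGAAG (a core that ETS factors such as GABPA bind), GCATGCGC (core of NRF1) and CACGTG (an E-box that Myc binds), searched on both strands. In Atp5g2 and Ndufaf4 the NRF1 core lies on both strands at once, and the matches overlap.
Uqcr11, chr10:80406822-80407071, minus strand: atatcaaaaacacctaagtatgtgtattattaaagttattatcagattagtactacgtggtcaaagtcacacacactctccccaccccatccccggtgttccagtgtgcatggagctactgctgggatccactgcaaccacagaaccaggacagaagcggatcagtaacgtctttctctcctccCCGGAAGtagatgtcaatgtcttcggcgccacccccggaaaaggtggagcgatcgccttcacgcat
Atp5g1, chr11:96075632-96075881, minus strand: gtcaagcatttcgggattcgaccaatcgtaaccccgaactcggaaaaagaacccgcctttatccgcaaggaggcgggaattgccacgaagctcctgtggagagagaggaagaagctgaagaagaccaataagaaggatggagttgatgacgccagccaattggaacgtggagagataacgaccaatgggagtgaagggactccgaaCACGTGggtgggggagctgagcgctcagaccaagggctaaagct
Atp5g2, chr15:102671048-102671297, minus strand: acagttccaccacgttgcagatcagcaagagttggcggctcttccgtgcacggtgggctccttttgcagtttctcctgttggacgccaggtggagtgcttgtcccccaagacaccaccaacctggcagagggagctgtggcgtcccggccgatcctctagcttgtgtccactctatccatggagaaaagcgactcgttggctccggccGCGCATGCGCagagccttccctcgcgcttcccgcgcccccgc
Atp5g3, chr2:73911327-73911576, minus strand: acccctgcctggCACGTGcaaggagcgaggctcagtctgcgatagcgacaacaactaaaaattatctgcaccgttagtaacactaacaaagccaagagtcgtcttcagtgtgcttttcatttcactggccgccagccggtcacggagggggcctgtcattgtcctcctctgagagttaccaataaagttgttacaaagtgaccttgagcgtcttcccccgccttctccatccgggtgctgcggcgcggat
Cox7a1, chr7:30183921-30184170, plus strand: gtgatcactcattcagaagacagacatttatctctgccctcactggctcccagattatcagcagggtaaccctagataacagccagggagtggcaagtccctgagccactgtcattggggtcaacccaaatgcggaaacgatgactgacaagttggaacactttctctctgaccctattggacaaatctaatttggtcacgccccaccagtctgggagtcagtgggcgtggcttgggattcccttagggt
Cox7a2, chr9:79759854-79760103, minus strand: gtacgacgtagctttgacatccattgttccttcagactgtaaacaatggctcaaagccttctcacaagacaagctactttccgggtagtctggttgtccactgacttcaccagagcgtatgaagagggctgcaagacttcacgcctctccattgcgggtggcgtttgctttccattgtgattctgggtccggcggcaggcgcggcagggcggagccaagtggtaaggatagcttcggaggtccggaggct
Ndufaf4, chr4:24897833-24898082, plus strand: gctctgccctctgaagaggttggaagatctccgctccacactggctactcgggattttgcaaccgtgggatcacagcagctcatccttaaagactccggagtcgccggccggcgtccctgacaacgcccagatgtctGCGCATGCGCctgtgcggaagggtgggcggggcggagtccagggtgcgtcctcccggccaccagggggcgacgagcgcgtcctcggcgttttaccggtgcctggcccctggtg

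NRF1, ETS factors and YY1 are known regulators of nuclear genes for mitochondrial proteins. RefSeq held 78 promoters of 73 of the 89 genes, each 300 bases long (250 before the start and 50 after), among 32851 promoters of all genes. The NRF1 core GCATGCGC stood in 12 of the 78, or 15.4% (exact 95% interval 8.21 to 25.3), and in 2.71% of all promoters. The ETS letters CCGGAAG stood in 18 (23.1%, 14.3 to 34.0) and in 8.86% of all, and the YY1 letters ATGGCGG in 12 (15.4%, 8.21 to 25.3) and in 4.05% of all. In the 250 bases before the start alone the YY1 letters stood in 6 (7.69%) and in 2.21% of all. At least 1 of these motifs stood in 36 of the 78 promoters (46.2%) and in 14.1% of all. The CREB letters TGACGTCA stood in 4 (5.13% against 1.79%), the AP-1 letters TGANTCA, of the family to which Batf belongs, in 6 (7.69% against 7.81%), and the E-box CACGTG in 7 (8.97% against 7.15%). The 12 promoters with YY1 letters belong to 11 genes and the 7 with an E-box to 6 genes, since promoters of the same gene can overlap. These are matches of letters on both strands, not measured binding. The intervals cover counting error only and treat the promoters as separate.

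**Figure D2:**
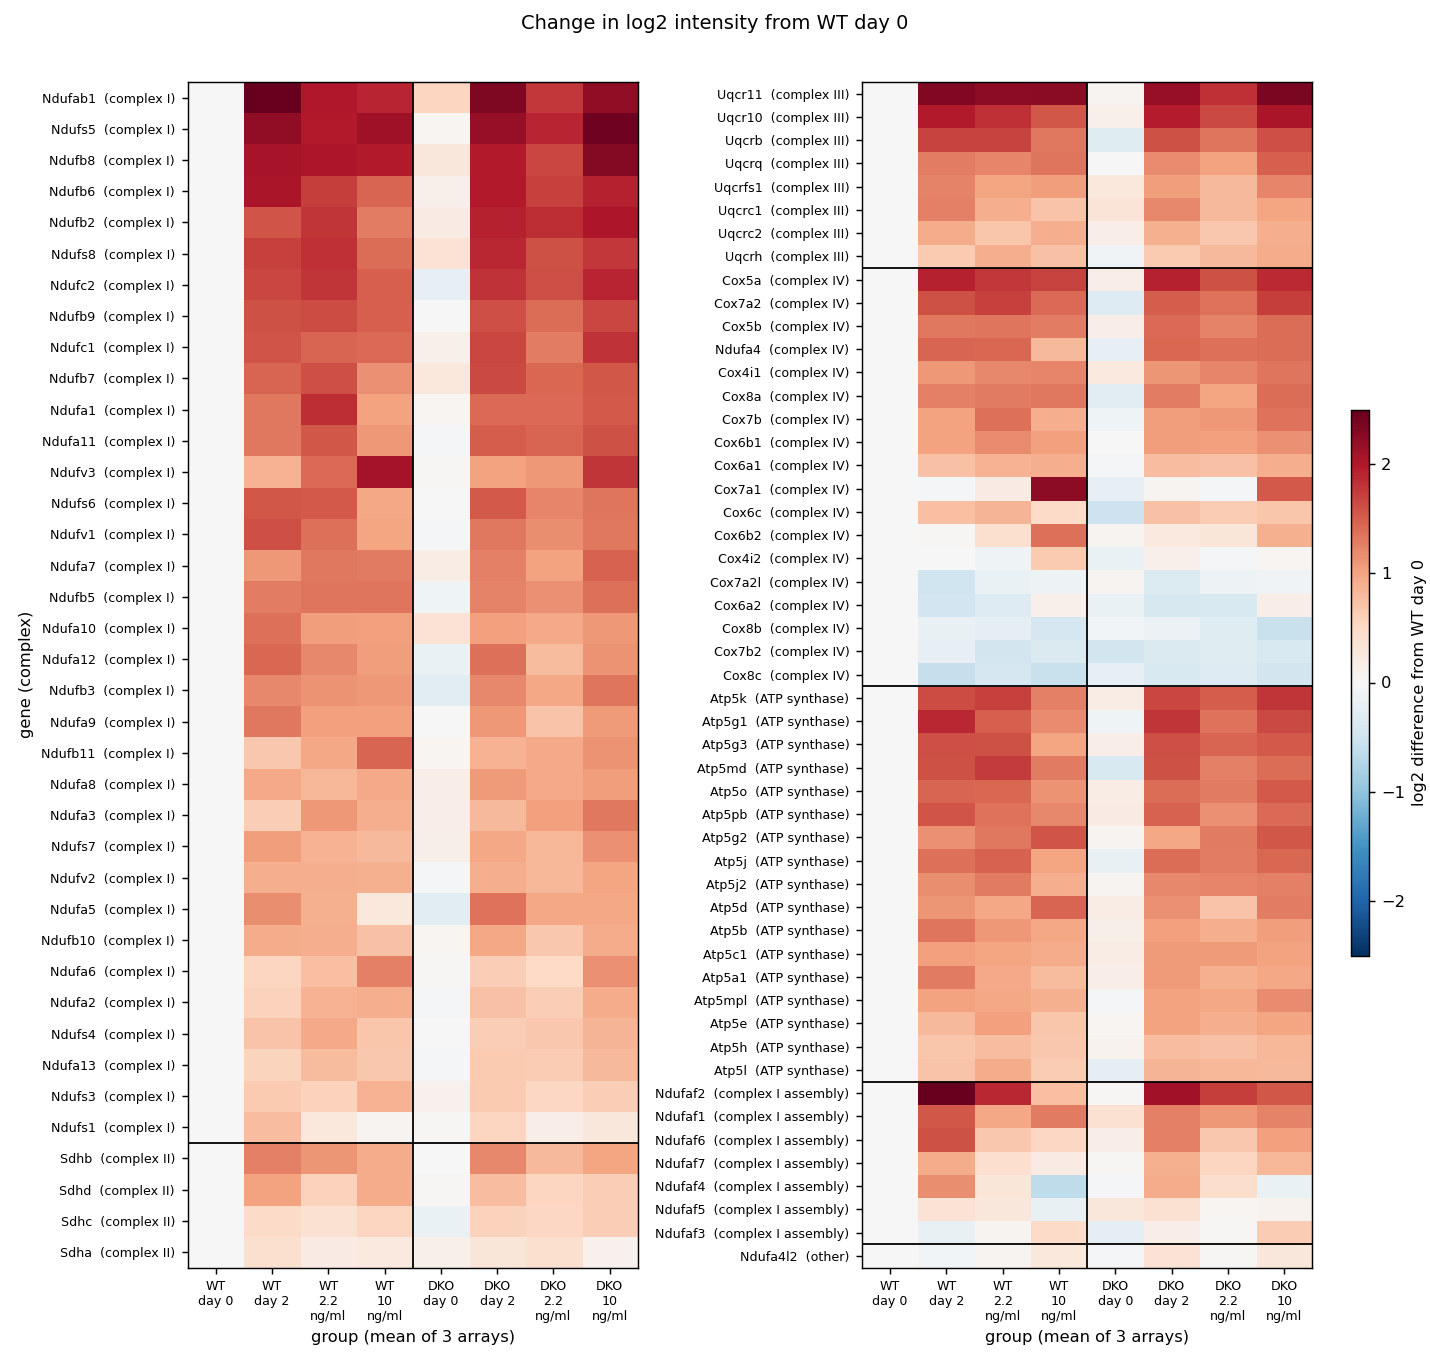
Log2 difference from WT day 0 of all 89 genes (rows, sorted within each complex by their mean) in the 8 groups (columns, means of 3 arrays); red is higher and blue lower. Complexes I, III and ATP synthase are red in nearly every activated column, and the pale and blue rows are complex IV isoforms, Sdha, Ndufs1 and assembly factors such as Ndufaf4.

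Complex IV divided by isoform. Of its 18 genes, the 10 that rose in every activation comparison are the broadly expressed forms Cox4i1, Cox5a, Cox5b, Cox6a1, Cox6b1, Cox6c, Cox7a2, Cox7b and Cox8a, and Ndufa4, now known as a complex IV subunit. The call of Cox6a1 at day 2 in WT cells was lost after loess (adjusted p = 0.3). Cox5a read 337, 323 and 167 in naive WT cells and 992, 958 and 1036 at day 2 (3.78-fold, 95% interval 2.80 to 5.12). Cox7a2, the common form of subunit VIIa, read 212, 278 and 318 against 821, 741 and 832 (3-fold, adjusted p = 1.16e-07), and reached 903, 836 and 914 in DKO cells at 10 ng/ml from 172, 270 and 202. Cox4i1, the common form of subunit IV, rose by 1.09 ± 0.16 at day 2 in WT and by 0.88 ± 0.16 in DKO cells.

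Among the others, Cox7a2l moved the opposite way. It encodes a relative of subunit VIIa that joins complexes III and IV into supercomplexes. It read 824, 809 and 772 in naive WT cells and 515, 602 and 584 at day 2, with no overlap, and fell by 0.50 ± 0.10 (1.42-fold, adjusted p = 0.000233). In DKO cells it read 819, 875 and 840 against 607, 610 and 681 and fell by 0.42 ± 0.10 (adjusted p = 0.00193). At day 4 it read 744, 713 and 681 at 2.2 ng/ml and 772, 727 and 699 at 10 ng/ml in WT cells, at or below the lowest naive array, though neither dose passed the test against day 0 (adjusted p = 0.227 and 0.326). Cox8c, a testis isoform, was called lower at day 2 in WT cells (22.7 ± 3.65 against 33.6 ± 3.12 at day 0), but these levels are at or near the guide. Cox6a2, the heart and muscle form of subunit VIa, was also called lower there (43.5 ± 2.54 against 61.0 ± 12.1 at day 0, adjusted p = 0.0264), a call lost without WT day 0 replicate 1 (0.127), WT day 0 replicate 3 (0.104) or WT day 2 replicate 2 (0.0881), and without WT replicate 3 at 2.2 ng/ml and at day 2 together (0.0533).

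Cox7a1, Cox6b2 and Cox4i2, isoforms known from other tissues, stood near background in naive cells and rose at 10 ng/ml, Cox4i2 in WT cells. Cox7a1, the heart and muscle form of subunit VIIa, read 29.3, 39.8 and 30.7 in naive WT cells, 42.9, 27.5 and 27.5 at day 2, 67.7, 25.1 and 32.0 at 2.2 ng/ml, and 173, 103 and 213 at 10 ng/ml. The DKO arrays in the same order read 28.8, 29.9 and 27.3, then 31.5, 30.5 and 42.3, then 32.4, 28.4 and 37.2, and finally 104, 135 and 62.4. In each genotype all 3 arrays at 10 ng/ml were above every other array of that genotype. The means of the other groups lay near the guide of 32.2, so a fold against them rests on a level near background. From day 0 to 10 ng/ml Cox7a1 rose by 2.24 ± 0.30 in WT cells (adjusted p = 1.6e-06). It was also called higher in DKO cells (adjusted p = 5.58e-05), where the naive mean of 28.7 lay under the guide.

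Cox6b2, the testis form of subunit VIb, read 39.6, 25.8 and 24.5 in naive WT cells, 40.3, 35.9 and 39.2 at 2.2 ng/ml, and 79.0, 90.0 and 61.8 at 10 ng/ml. From day 0 to 10 ng/ml it rose in WT cells (adjusted p = 6.87e-07) and in DKO cells (adjusted p = 0.000628), where it read 49.5, 57.6 and 55.9. The naive means, 29.9 in WT and 30.7 in DKO cells, lay under the guide, so no size is given. Cox4i2, the form of subunit IV known from lung and low oxygen, read 34.1, 35.5 and 34.4 in naive WT cells, 33.0, 31.2 and 32.2 at 2.2 ng/ml, and 50.4, 57.3 and 57.4 at 10 ng/ml. In DKO cells at 10 ng/ml it read 31.3, 31.0 and 47.9, with 2 of 3 arrays under the guide. The rise from day 0 was 0.66 ± 0.14 in WT cells (adjusted p = 0.000613). Cox7b2, Cox8b and Ndufa4l2 stayed under the guide on average, with Ndufa4l2 between 15.5 and 27.4 on the WT and DKO arrays at 10 ng/ml.

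**Figure D3:**
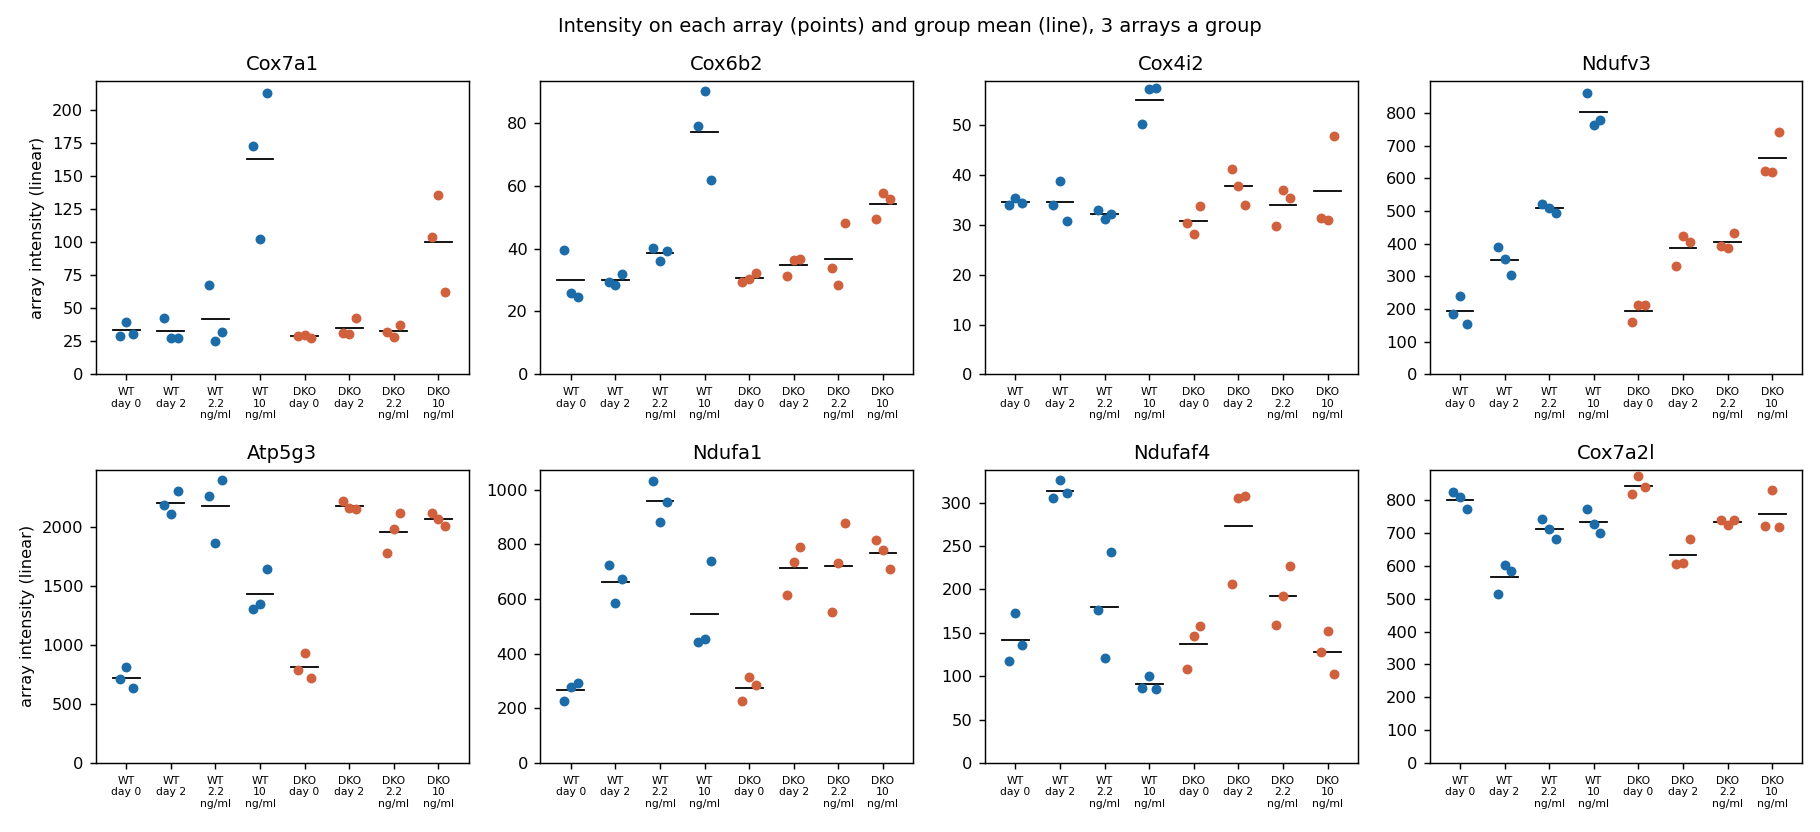
Array intensity (linear, axes from 0) of 8 members on each array by group, with a line at the group mean; WT is blue and DKO orange, 3 arrays a group. Cox7a1 is at 103 or more on the WT arrays at 10 ng/ml, Atp5g3 falls to 1303 to 1640 there while DKO cells stay at 2004 to 2119, and Cox7a2l is lowest at day 2 in both genotypes.

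On average the assembly factors of complex I stood lower at day 4 than at day 2 in both genotypes, and lowest in WT cells at 10 ng/ml. In WT cells their mean over 7 genes was 1.13 ± 0.09 (log2 difference from WT day 0, SD, n = 3) at day 2. It was 0.65 ± 0.24 at 2.2 ng/ml and 0.35 ± 0.05 at 10 ng/ml. Between day 2 and 10 ng/ml 5 of the 7 fell and 1, Ndufaf3, rose, where 12.9% of all genes fell and 10.3% rose. The call of Ndufaf3 was lost without WT day 2 replicate 1 (adjusted p = 0.0919) or 2 (0.0564) or WT replicate 2 at 10 ng/ml (0.154), and that of Ndufaf5 in 14 alternatives (up to 0.259). In DKO cells the means were 0.996 ± 0.14 and 0.74 ± 0.09, and 1 of the 7, Ndufaf4, fell, where 1.75% of all genes did. Far fewer of all genes were called in DKO cells, so these counts do not by themselves compare the genotypes. Ndufaf2, a factor that joins late in assembly, read 56.5, 86.5 and 37.4 in naive WT cells, 344, 311 and 320 at day 2, 173, 181 and 290 at 2.2 ng/ml, and 77.5, 89.9 and 126 at 10 ng/ml. It rose by 2.52 ± 0.30 at day 2 and fell by 1.76 ± 0.30 from day 2 to 10 ng/ml (adjusted p = 8.83e-05). Ndufaf4 read 117, 173 and 136 in naive cells, 305, 326 and 311 at day 2, and 86.0, 100.5 and 85.3 at 10 ng/ml. The arrays at 10 ng/ml were below all naive arrays, and the fall from day 2 was 1.79 ± 0.22 (3.47-fold, 95% interval 2.55 to 4.73, adjusted p = 8.89e-07). In DKO cells Ndufaf4 read 207, 305 and 308 at day 2 and 128, 153 and 102 at 10 ng/ml, and fell by 1.09 ± 0.22 (adjusted p = 0.00272). Ndufaf6 and Ndufaf7 also fell from day 2 to 10 ng/ml in WT cells, by 1.08 ± 0.21 and 0.71 ± 0.17. In DKO cells their differences were -0.23 and -0.05 (adjusted p = 0.674 and 0.934).

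From day 2 to 10 ng/ml, 9 of the 89 genes rose and 19 fell in WT cells, where 10.3% of all genes rose and 12.9% fell. This split turned with the scaling, to 15 higher and 10 lower after cyclic loess. Beside the assembly factors and the c subunit genes, falls that held in each alternative run included those of Ndufa5, a peripheral accessory subunit (-0.90 ± 0.19), Ndufs1 and, named after its values were seen, Atp5a1, the alpha subunit of the catalytic head (-0.49 ± 0.11). Rises that held were those of Cox7a1 (2.29 ± 0.30), Cox6b2, Cox4i2 (0.68 ± 0.14), Ndufv3 (1.21 ± 0.15), Ndufb11 (0.79 ± 0.18) and Ndufa6 (0.73 ± 0.15). The WT day 2 mean of Cox6b2, 29.9, lay under the guide, so no size is given. Those of Cox7a1 (32.6) and Cox4i2 (34.5) lay near it. In DKO cells 6 rose and 1 fell (3.43% and 1.75% of all genes), among them Cox7a1 (1.48 ± 0.30) and Ndufv3 (0.78 ± 0.15). That count of 7 was 3 or 4 without DKO day 2 replicate 1, 2 or 3 or DKO replicate 2 or 3 at 10 ng/ml. From day 2 to 2.2 ng/ml, 2 rose and 6 fell in WT cells (4.74% and 6.46% of all genes; 4 and 3 after loess), a count of 8 that was 3 to 5 without WT day 2 replicate 1, 2 or 3 and 3 and 1 without WT replicate 1 and 2 at 2.2 ng/ml. None passed the limma test in DKO cells (3.74% and 2.43% of all genes), and 1 passed after loess. There 14 members had an unadjusted p under 0.05 (15.7%, against 18.2% of all genes). DKO arrays at 2.2 ng/ml lay below those of day 2 without overlap for 25 members and above for 1 (12.2% and 10.3% of all genes).

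The dose comparison set 10 against 2.2 ng/ml at day 4. In WT cells 6 of the 89 genes were higher at 10 ng/ml and 11 lower, where 7.64% of all genes were higher and 7.52% lower, and after loess the split was 11 and 7. Cox7a1 was 4.10-fold higher (95% interval 2.66 to 6.32, adjusted p = 2.34e-05), Cox6b2 1.98-fold (1.54 to 2.54, adjusted p = 0.000234) and Cox4i2 was also called higher (adjusted p = 0.000336), against a mean of 32.1 at 2.2 ng/ml that was not above the guide. Ndufv3, an accessory subunit beside the NADH-binding site, read 521, 508 and 494 at 2.2 ng/ml and 863, 764 and 779 at 10 ng/ml (0.66 ± 0.15, adjusted p = 0.0026). Lower at 10 ng/ml were Ndufaf4 (-0.94 ± 0.22), Atp5g3 (-0.60 ± 0.13, adjusted p = 0.00131) and Ndufa1, a membrane-arm accessory subunit. Ndufa1 read 1033, 883 and 956 at 2.2 ng/ml and 442, 453 and 738 at 10 ng/ml (-0.85 ± 0.18, adjusted p = 0.00159), so the groups did not overlap. These 7 calls held in all 34 alternatives. The other 10 were each lost in 3 or more. The count of 17 was 11 without WT replicate 1 at 2.2 ng/ml, 9 without replicate 3 of that dose and 8 without WT replicate 1 at 10 ng/ml.

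In DKO cells 9 genes were higher at 10 than at 2.2 ng/ml and none lower, where 4.47% of all genes were higher and 3.68% lower. Cox7a1 (2.95-fold, 95% interval 1.91 to 4.54, adjusted p = 0.00119), Ndufv3 (1.63-fold, 1.32 to 2.02, adjusted p = 0.00255) and Ndufa6 (1.56-fold, 1.26 to 1.94, adjusted p = 0.00655) held in all 34 alternatives. The other 6, Cox6b2, Atp5d, Cox6a2, Cox8a, Uqcrfs1 and Ndufb8, were each lost in 2 or more. The count of 9 was 3 without DKO replicate 1 and 4 without replicate 2 at 2.2 ng/ml, and 4 without DKO replicate 2 or 3 at 10 ng/ml. Ndufv3 read 392, 387 and 434 at 2.2 ng/ml and 623, 620 and 743 at 10 ng/ml. Of the 17 genes called in WT cells and the 9 called in DKO cells 5 were shared, all with the same sign (29.4% of the WT and 55.6% of the DKO calls).

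Most differences between doses in DKO cells lay above 0, for 81 of the 89 genes, where more of all genes lay below 0 than above. Members moved together on an array, so they are not separate observations. For complex I, DKO replicate 1 at 2.2 ng/ml stood at 0.94, against 1.11 and 1.255 for replicates 2 and 3. At 10 ng/ml the arrays of DKO cells lay above those at 2.2 ng/ml without overlap for 33 of the 89 genes and below for 4, and for 13.1% and 12.8% of all genes. The median log2 difference was 0.18 in DKO cells (all genes -0.01) and -0.12 in WT cells (all genes -0.04). The WT median was -0.02 after loess and the DKO median 0.18. Against day 2, the median of the 89 genes in DKO cells was -0.16 at 2.2 ng/ml and 0.04 at 10 ng/ml.

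**Figure D4:**
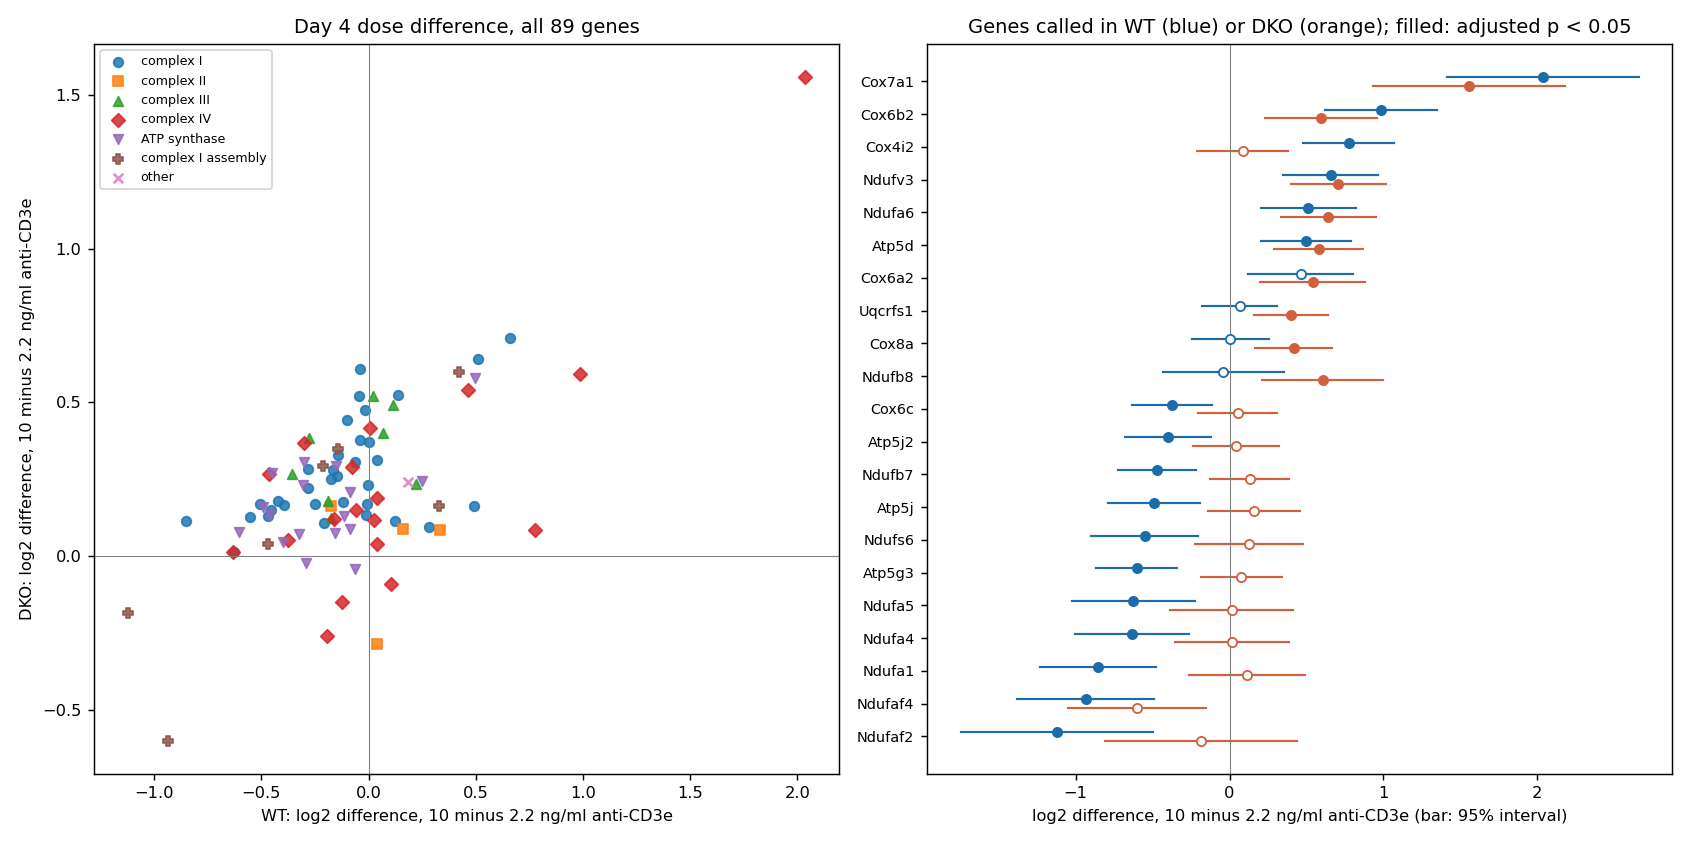
Log2 difference between 10 and 2.2 ng/ml of anti-CD3e at day 4. Left, WT (x axis) against DKO (y axis) for all 89 genes by complex; right, the genes called in either genotype with 95% intervals, filled where the adjusted p is under 0.05. Cox7a1 is highest in both genotypes (2.04 and 1.56), while Atp5g3 and Ndufa1 lie below 0 in WT cells only (-0.60 and -0.85, against 0.08 and 0.11 in DKO cells).

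Genotype was compared within each state. No member passed the limma test between DKO and WT cells at day 0, day 2 or 2.2 ng/ml, where 0.0652%, 2.71% and 3.71% of all genes did, and this count was 0 in each alternative run. An unadjusted p under 0.05 was held by 9, 4 and 5 members, and by 7.1%, 16.3% and 12.8% of all genes. At day 2 the median log2 difference of the members was 0.01, and 3 genes were above and 10 below WT without overlap (12.6% and 11% of all genes). With 2.2 ng/ml the median was -0.14 (all genes 0.001), and -0.09 after loess. There 0 members were above and 6 below WT without overlap (8.58% and 8.18% of all genes). At 10 ng/ml 6 members were higher and 1 lower in DKO cells (6.68% and 6.09% of all genes; 4 and 2 after loess, 13 and 1 after quantile normalization). The count of 7 was 3 without WT replicate 1, DKO replicate 1 or DKO replicate 2 of that dose and 4 without WT replicate 2. It was 11 without WT replicate 3 of that dose or WT day 0 replicate 3, and 12 without DKO day 0 replicate 1.

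Atp5g3 read 2119, 2061 and 2004 in DKO and 1303, 1342 and 1640 in WT cells at 10 ng/ml, a difference of 0.54 ± 0.13 (1.45-fold, 95% interval 1.21 to 1.74, adjusted p = 0.00452). Cox4i2 was lower by 0.61 ± 0.14 (adjusted p = 0.00413), with all DKO arrays below all WT arrays. Ndufa5 was higher, at 596, 569.5 and 505 against 289.5, 333 and 399.9 (0.72 ± 0.19, adjusted p = 0.0131), a call lost without WT replicate 1 (0.0847) or DKO replicate 1 (0.059) of that dose. Ndufaf7 was higher by 0.62 ± 0.17, a call lost without WT replicate 2 (adjusted p = 0.134) or DKO replicate 2 (0.12). Ndufa4, Atp5j and Ndufb7 were also called higher, by 0.58, 0.46 and 0.42, and lost the call in 5, 7 and 5 alternatives with adjusted p up to 0.165, 0.118 and 0.101.

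At 10 ng/ml the 89 genes had a median log2 difference of 0.18 between DKO and WT cells (all genes 0.03), and 74 lay above 0. Among all genes, too, more lay above 0 than below. Members moved together on an array, so counts above 0 are not counts of separate observations. DKO arrays were above WT arrays without overlap for 42 genes and below for 6, against 15.8% and 11.1% of all genes. The complex I subunits had a median of 0.24, with 30 of 34 above 0, and ATP synthase 0.22, with 15 of 17. The median over the 89 genes was 0.10 after loess and 0.19 after quantile normalization.

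The difference between genotypes in the response was itself tested. Cox6c, a nuclear subunit of complex IV, rose more in DKO cells between day 0 and 10 ng/ml, from 885, 1006 and 1040 to 2280, 2297 and 2175, against 1355, 1317 and 1521 to 1860, 1831 and 2136 in WT cells. The difference of the changes was 0.73 ± 0.18 (adjusted p = 0.0101), where 6.52% of all genes passed this test, and it held in all 34 alternatives. Its naive level was lower in DKO cells without overlap, though that comparison did not pass the test (adjusted p = 0.193). Cox7a1, with an interaction of -0.48 ± 0.43 for dose (adjusted p = 0.674), did not pass the test of a difference between genotypes in its response to dose (95% interval -1.36 to 0.40). For the response to dose, 3 members had a higher and 1 a lower value in DKO cells (3.56% and 3.38% of all genes; 2 and 2 after loess). They are Atp5g3, Ndufa1 and Ndufb7 higher and Cox4i2 lower, and none of the 4 held in all alternatives. The day 2 response differed for 1 member (1.05% of all genes) and the 10 ng/ml response for 2, Cox6c and Ndufa5. The 2.2 ng/ml response differed for none by limma (1.48% of all genes). There 8 members had an unadjusted p under 0.05 (8.99%, against 10.4% of all genes).

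Other genes of the pathway were read from lists chosen by their known roles. Of all genes whose mean was above the guide, 37.1% rose at day 2 in WT cells and 28.5% in DKO cells, and 23.5% and 22% fell. Of 37 measured assembly factors outside the rule, 22 rose and none fell in WT cells at day 2, and 12 rose in DKO cells, the latter near the share of all genes above the guide. Uqcc2, an assembly factor of complex III, rose 4.98-fold and Cox17, the copper chaperone of complex IV, 3.17-fold in WT cells. Of 17 electron carriers and coenzyme Q genes, 7 rose and 1 fell in WT cells, near that share, and 8 rose and 1 fell in DKO cells. Cycs, cytochrome c itself, read 251, 241 and 236 in naive WT cells and 1269, 1150 and 1223 at day 2 (2.32, adjusted p = 1.4e-09). Of 13 citric acid cycle genes, 12 rose and none fell at day 2 in WT cells, and at 10 ng/ml 9 rose and 1 fell, including Fh1, fumarate hydratase (2.36 at day 2), and Mdh2, malate dehydrogenase (1.45). In DKO cells 9 rose at day 2.

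Of 17 regulators of mitochondrial gene expression, 8 rose and 1 fell in WT cells at day 2, and 2 rose and 4 fell at 10 ng/ml, where 31.7% of the genes above the guide rose and 22.7% fell. The transcription factor Myc rose by 1.35 at day 2 (adjusted p = 6.63e-09), and Polg2, the accessory subunit of the mitochondrial DNA polymerase, fell by 2.41 on the log2 scale. Of 9 genes of energy dissipation, channels and inhibitors, 7 rose and 1 fell. Atpif1, the inhibitor of ATP synthase run in reverse, read 261, 349 and 308 in naive WT cells and 1829, 1848 and 1843 at day 2 (6.06-fold, adjusted p = 1.67e-11), and rose 5.35-fold in DKO cells. Vdac1, the main channel of the outer membrane, rose by 2.58 at day 2 and by 3.17 at 10 ng/ml in WT cells. None of the 13 subunits encoded in mitochondrial DNA was among the genes measured here, so the nuclear subunits cannot be set against them.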

How the data were processed

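RNA from 24 samples was hybridised to Affymetrix arrays. The deposited values are array intensities on a linear scale, normalized by the authors with RMA, per the submitters' processing notes; no scan batch is named in the labels. Of 35556 probe sets, 21789 carry 1 gene symbol, and the brightest probe set by mean log2 intensity stood for each of 19938 genes. Log2 of the deposited intensities was fitted with limma 3.58.1 in R 4.3.3, in 1 model with 8 group means and 20 contrasts (16 residual and 7.49 prior degrees of freedom), with Benjamini-Hochberg adjustment within each contrast over all genes. The script was tested on simulated data. The number of arrays limits the precision.

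Genes named are the leading called rises and falls of each contrast, all calls where a genotype, dose or interaction contrast had 12 or fewer, the isoforms and Sdh genes, and leading genes of each complex and pathway list. The members and lists were chosen with earlier results of these data known. Alternatives were other normalizations (cyclic loess, quantile), a filter on dim genes, all probe sets, other variance models, array weights, the replicate block and arrays left out. Promoters are from RefSeq (GRCm38.p6). All 89 members matched RefSeq by gene ID.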

Additional observations from a re-analysis of the deposited data

Results flagged for a closer look

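In 7 results the difference between genotypes in the response was itself past the threshold (limma interaction terms, DKO minus WT on the log2 scale). Cox6c rose more in DKO cells from day 0 to 10 ng/ml, by 0.733 (adjusted p = 0.0101), in all 34 alternatives. The rise of Ndufa5 over the same interval differed by 1.01 (adjusted p = 0.0247, lost in 8 alternatives, up to 0.0852). The day 2 rise of Ndufa10 was smaller in DKO cells, by -0.717 (adjusted p = 0.0425, lost in 18 alternatives, up to 0.149).

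For dose, the difference was 0.68 for Atp5g3 (adjusted p = 0.0192, lost in 6 alternatives, up to 0.0739), 0.967 for Ndufa1 (0.0214, lost in 7, up to 0.0815) and 0.602 for Ndufb7 (0.0357, lost in 12, up to 0.122). It was -0.689 for Cox4i2 (0.0379, lost in 12, up to 0.125), whose mean in WT cells at 2.2 ng/ml was not above the guide to background.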

How the results depend on the processing

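The 6 activation counts changed by less than 1.5 times in every alternative, and leaving out 1 array gave 79 to 81, 73 to 76 and 76 to 79 called members in WT cells (day 2, 2.2 and 10 ng/ml) and 77 to 78, 69 to 74 and 78 to 79 in DKO cells. The other counts ranged more widely when 1 array was left out: against day 2, 1 to 11 (WT, 2.2 ng/ml), 19 to 29 (WT, 10 ng/ml), 0 to 2 (DKO, 2.2 ng/ml) and 3 to 7 (DKO, 10 ng/ml). Genotype at 10 ng/ml gave 3 to 12, dose 8 to 19 in WT and 3 to 10 in DKO cells, and the interactions 0 to 1 (day 2), 1 to 5 (10 ng/ml), 0 to 1 (2.2 ng/ml) and 0 to 9 (dose). Genotype gave 0 at day 0, day 2 and 2.2 ng/ml each time. Of the 24 such fits, 14 changed the count for the interaction by day 2 by over 1.5 times and 9 that for the interaction by dose, and the cause was not tested.

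Other settings moved these counts. For WT 2.2 ng/ml against day 2 (8 calls), array weights gave 13 and leaving out WT replicate 3 of both groups gave 5. For DKO cells in the same comparison (0 calls), a filter on dim genes gave 3, cyclic loess 1, moderation with trend and robust 2, and the 2 arrays left out 1. For genotype at 10 ng/ml (7 calls) the dim filter gave 11, quantile normalization 14, the compared groups alone 16, trend and robust 11, and array weights 16. The WT dose count (17) was 9 without those 2 arrays. The interaction by day 2 (1) was 0 under loess, quantile, compared groups alone and without the 2 arrays. The interaction by 10 ng/ml (2) was 4 under loess, 5 under quantile and 1 with compared groups alone, and the interaction by dose (4) was 2 with compared groups alone and 0 without the 2 arrays. The YY1 share was 7.69% in the 250 bases before the start, against 2.21% of all promoters. The causes were not tested.

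Of 314 named calls, 239 held in every alternative and 75 were lost in at least 1. The rises of Sdha (day 2, WT) and Sdhc (day 2 and 2.2 ng/ml, WT) reversed under loess, to -0.0968, -0.0352 and -0.0352. Replicate numbers showed no shared signal over all genes. Deviations of 84 same-number pairs had a median correlation of 0.000998 (-0.152 to 0.264), and of 168 other pairs 0.000782. Such a median cannot decide whether some groups were paired, or whether pairing touched part of the genes. The replicate block gave 1 call for DKO 2.2 ng/ml against day 2, where the fit without it gave 0, and moved no other count of members by over 1.5 times. Protein identity between paralogs was planned and not run.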
